A study of Gallus gallus with 12 samples.

Results

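The embryonic chick midbrain (m) was compared with rhombomeres 4 and 5 (r4 and r5) of the hindbrain on Affymetrix Chicken GeneChips. The comparison used the 2 arrays of m, the 2 of r4 and the 2 of r5, that is 6 of the 12 arrays of the series, chosen by the region named in the sample labels. In the sample labels the groups differ only in the region dissected. All are neural tube of untreated embryos of the same stage, freed of ectoderm and mesoderm with the protease Dispase and cut by hand into segments. The signals of control transcripts also differed between the groups, as given below. The stage is HH10 in the sample labels, HH10 to HH11 in the growth protocol and HH11 in the paper, which also describes m as the caudal part of the midbrain. Each array carried amplified cDNA of a pool of tissue, and the pools denoted set 1 and set 2 were collected on separate occasions, so that n = 2 for each region. A p-value sets a difference against the spread between such pools, which the limma test used below estimates in part from other probe sets. The arrays of r1 and r2 are given beside the comparison but were not tested in it, and those of r3 were left out.

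The hindbrain is divided along its length into rhombomeres, segments that carry their own combinations of Hox genes, a family of homeodomain transcription factors that set position along the body axis. The midbrain in front of it lacks Hox expression and is marked by OTX2, and the boundary between midbrain and r1, the isthmus, is a signalling centre that releases FGF and Wnt proteins. Retinoic acid, made by the mesoderm beside the caudal hindbrain and spinal cord, acts as a posteriorising signal, and r4 and r5 are themselves sources of FGF ligands.

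Control transcripts, for which the chip has a probe set near each end, gave less 5′ signal in r4 and r5 than in m, except GAPDH on the array of r5 set 2. The ratio of 3′ to 5′ signal of beta-actin, a cytoskeletal protein, was 7.26 and 7.15 in m, 35.4 and 44.7 in r4, and 33.5 and 22.0 in r5. For the elongation factor EF1a it was 1.98 and 2.46 in m, 17.2 and 9.13 in r4, and 8.33 and 3.67 in r5. The ratios of these 2 transcripts did not overlap between m and the other 4 arrays (two-sided exact permutation test, p = 0.133, the smallest p that 2 against 4 arrays can give). For the glycolytic enzyme GAPDH, at 1.00 and 0.957 in m, 7.49 and 4.03 in r4, and 3.84 and 0.941 in r5, the groups overlapped (exact permutation p = 0.4). The 5′ probe sets of these 3 transcripts were up to 2.15 higher in m on the log2 scale (GAPDH against r4), and their 3′ probe sets up to 0.76 lower (EF1a against r4). Unscaled signals above 20 were more frequent in m (31.2% to 34.4% of probe sets) than in r4 and r5 (23.6% to 27.1%). RNA state and region cannot be told apart in these 6 arrays, and values of r1 and r2, with beta-actin ratios of 8.58 to 13.3, are therefore given with the genes below. The EF1a ratios of r1 and r2 were 2.21 to 3.80, and the highest, in r1 set 2, exceeded that of r5 set 2.

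**Figure D1:**
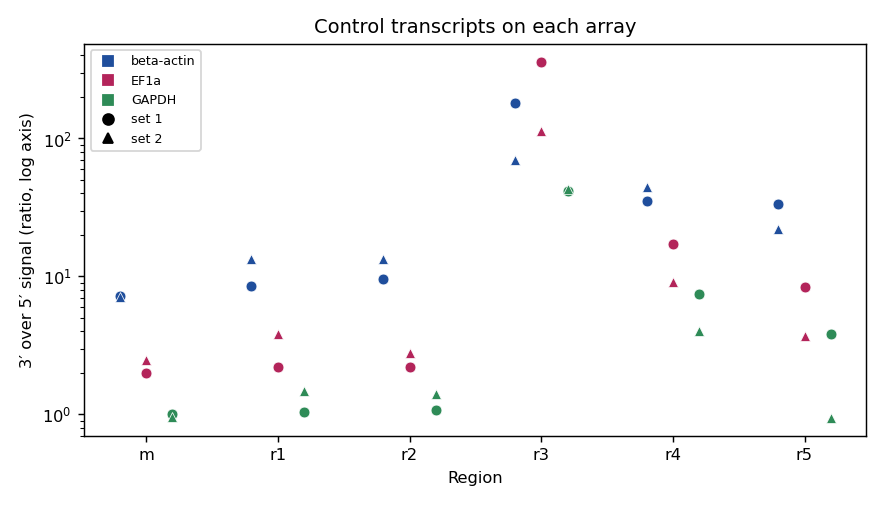
Ratio of 3′ to 5′ signal (log axis) of 3 control transcripts on each of the 12 arrays, by region, with circles for set 1 and triangles for set 2. The beta-actin ratio was 7.15 and 7.26 on the m arrays and 22.0 to 44.7 on the r4 and r5 arrays, with r1 and r2 between them (8.58 to 13.3) and r3 highest.

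Higher in m than in r4 and r5 were OTX2, EN1 and other genes of the midbrain and isthmus, and Wnt ligands such as WNT4 and WNT2B. Lower in m were Hox genes, PAX6, enzymes that break down retinoic acid, the neurofilament NEFM and the neural crest gene SNAI2. Of 19740 probe sets that were above the median of their array in 1 or more of the 3 regions, on both arrays of that region, 409 (2.07%) were higher in m than in r4 and also than in r5, and 287 (1.45%) were lower than in both. The call is limma's test on log2 signal, with the larger p of the contrasts with r4 and with r5 adjusted by Benjamini-Hochberg at 0.05, and both contrasts share the 2 m arrays. An ordinary linear model, which uses only the spread of each probe set itself, called 1 higher and 1 lower. Against r4 alone 10.4% of probe sets were higher in m and 5.86% lower, and against r5 alone 4.89% and 3.41%. With 1 probe set taken per gene, the one with the highest mean signal, 215 of 9457 genes (2.27%) were higher in m and 187 (1.98%) lower, 4.25% in all. Among these genes 49 were higher and 59 lower by at least 2 on the log2 scale against both rhombomeres, and 9 and 10 by at least 4. All 215 had both m arrays above the 4 arrays of r4 and r5, and all 187 had both below. The call on these same arrays nearly assures this, so that it is no further support.

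The number of small changes depended on the level to which the arrays were scaled. Each array was divided by its median signal, after which the median probe set was 0.15 higher in m than in r4 and 0.15 higher than in r5, and 58.8% of calls were higher in m. Quantile normalisation moved these shifts to −0.01 and 0.02 and the share to 47.8%, centring on housekeeping genes to 0.39 and 0.30 and 84.5%, and centring on the probe sets tested to −0.20 and −0.12 and 20.5%. Unscaled, the shifts were 0.77 and 0.77 and the share 96.3%. Under the first 4 of these scalings 371 probe sets were called higher and 258 lower every time, for 193 and 166 genes, and with the unscaled signals added, 371 and 125 probe sets. Of the 215 genes higher in m, 39 exceeded the largest 5′ difference among the controls (2.15) against both rhombomeres. Of the 187 lower genes 155 exceeded the largest 3′ difference (−0.76), which is a lower bar, and 53 exceeded 2.15 in size. So few control transcripts cannot bound what RNA state does to other genes, so that these counts are a description. Leaving out an m array lowered the counts to 33 higher and 86 lower probe sets (without set 1) or 26 and 81 (without set 2). In such a fit, and in those below that leave out an array, the lone array of a region is assumed to vary like the arrays of the other regions. They were 380 and 340 without r4 set 1, 994 and 378 without r4 set 2, 85 and 109 without r5 set 1, and 129 and 124 without r5 set 2.

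Single genes were also refitted with the mean 3′ to 5′ ratio of the controls as a covariate, over the 10 arrays of m, r1, r2, r4 and r5. That fit also holds a mean for each region, so that the slope of the ratio comes only from differences between pools of the same region. The slope is then applied to the gap between m and the rhombomeres. Keeping or losing a call therefore does not separate RNA state from region, here or for the genes below. Of 70 genes of the naming rule that were called, 22 kept their call in that fit and 48 did not. Those that kept it and were higher in m were OTX2, EN1, FGF18, WNT4, APCDD1, BPIFB3 and GALNT6. Those that kept it and were lower in m were PAX6, HOXA2, HOXB1, CYP26C1, NEFM, TAGLN3, STMN2, SNAI2, ZIC1, EPHA7, DRAXIN, FGFR3, HAPLN1, TSHZ3 and RASD2. Of 38 other probe sets of the 70 genes, 11 were called the same way, 25 were not called and 2 had the opposite sign without a call. Those not called include the second probe sets of AGT (−1.24 and −1.53), ADCYAP1 (−3.27 and −1.49) and STMN2 (−2.25 and −1.90), whose differences have the sign of the main probe set.

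**Figure D2:**
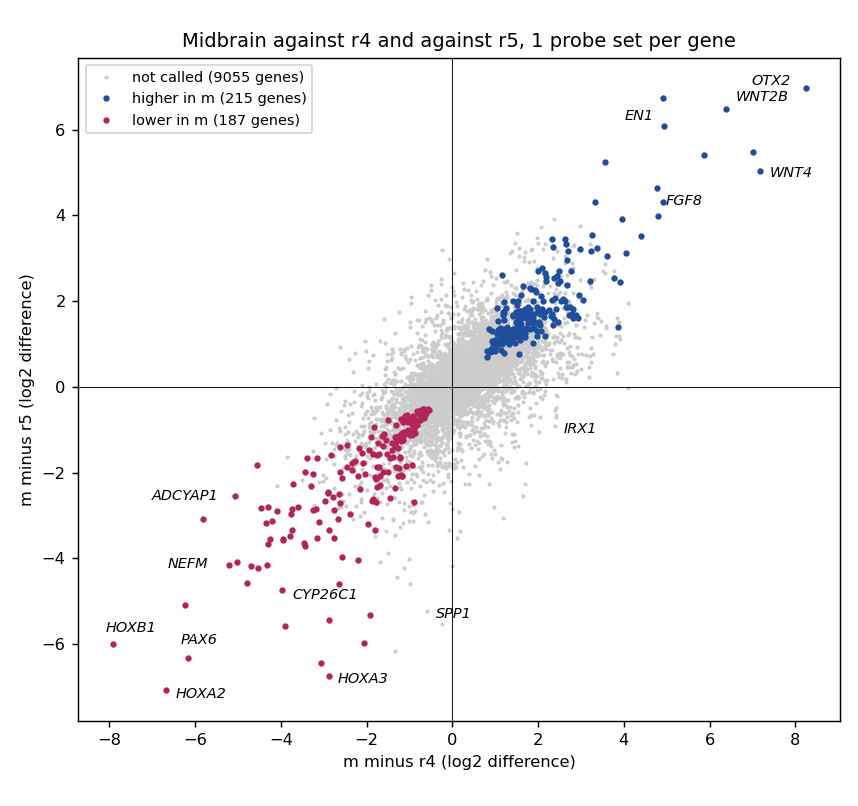
Log2 difference of m from r4 (horizontal axis) and from r5 (vertical axis) for 9457 genes, 1 probe set each, with the 215 genes higher in m in blue and the 187 lower in red. OTX2 lies farthest to the upper right (8.24 and 6.96), HOXB1 (−7.91 and −6.00) and HOXA2 (−6.67 and −7.08) farthest to the lower left, and SPP1 and IRX1 are examples of genes that did not differ from both rhombomeres the same way.

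OTX2, the homeobox gene that specifies forebrain and midbrain, had the largest excess in m of all genes called. Its scaled signal was 818 and 728 in m, 1.5 and 4.32 in r4, and 6.66 and 5.74 in r5. The m arrays were thus 8.24 ± 0.45 above r4 and 6.96 ± 0.45 above r5 (log2 difference ± SE, n = 2 pools per region; limma adjusted p = 1.94e-05). The call held for another OTX2 probe set as well (6.30 and 7.92). Both r1 arrays, at 126 and 132, lay between m and both r2 arrays, at 15.9 and 17.2. Signals below about 20 were not set apart from background here, because detection flags were not used, so that for this and other genes near the floor the size of a difference is less certain than its direction.

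Of the 22 genes on a list of midbrain and isthmus genes, the annotation names 14 and the filter kept 10. Of these, 6 were higher in m (60.0% called, beside 4.25% of all genes) and none was lower. The median difference from the mean of r4 and r5 was 3.94, beside 0.08 over all genes. This list and those below were chosen with earlier results of these data known, so that their counts are a description. EN1, the engrailed homeobox gene of the midbrain and r1, was at 1057 and 1086 in m, 45.0 and 27.2 in r4, and 27.3 and 9.04 in r5. MAB21L2, a gene of the developing eye and midbrain, read 140.5 and 134 in m and 0.38 to 4.37 in r4 and r5. These 2 genes parted at r1: EN1 was still at 766 and 817 there, whereas MAB21L2 was at 6.64 and 3.13, so that of the pair only EN1 reached into r1. FGF18, a ligand of the isthmus, had signals of 329 and 341 in m, 292 and 320 in r1, and 3.38 to 9.79 in r4 and r5. FGF8, the ligand through which the isthmus patterns its neighbours, was at 56.1 and 56.4 in m and 0.57 to 4.49 in r4 and r5, but its signal in r1, 161 and 131, was above both m arrays.

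The log2 differences from r4 and from r5 were 4.94 and 6.09 (each ± 0.44) for EN1, 7.01 and 5.47 (± 0.52) for MAB21L2, 5.86 and 5.41 (± 0.45) for FGF18, and 4.76 and 4.63 (± 0.80) for FGF8. Their adjusted p-values in limma were 0.000144, 0.000272, 0.000116 and 0.0123. PAX2, a paired-box gene of the isthmus and the sixth gene called, was at 330 and 359 in m, 20.1 and 25.9 in r4, and 60.4 and 65.7 in r5 (adjusted p = 0.000247). The members that did not pass were DMBX1, LMX1B, SP8 and GBX2. GBX2, the homeobox gene that opposes OTX2 at the isthmus, read 319 and 428 in m, 1404 and 1432 in r4, and 522 and 943 in r5 (adjusted p = 0.0743). LMX1B, a LIM homeobox gene of the isthmus, read 57.5 and 66.2 in m and 25.6 to 31.8 in r4 and r5 (0.0561). WNT1 and PAX5, also markers of this region, fell below the filter on low signal. FGF8 missed the threshold without m set 1 (0.204), m set 2 (0.213) or r5 set 1 (0.113).

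**Figure D3:**
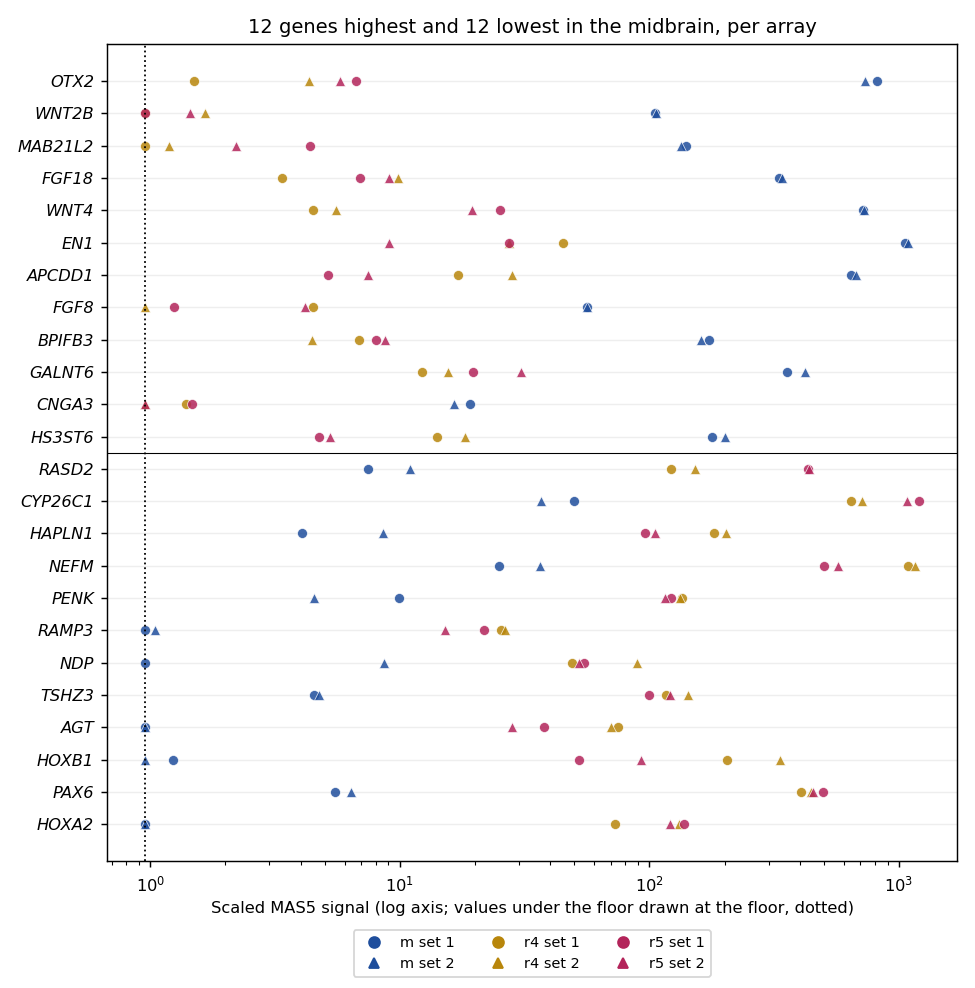
Scaled signal (log axis) on the arrays of m, r4 and r5 for the 12 genes highest and the 12 lowest in m, ranked by the smaller of their differences from r4 and r5. OTX2 was at 728 and 818 in m and no higher than 6.66 elsewhere, and PAX6 at 5.47 and 6.35 in m and no lower than 406 elsewhere. In each of the 24 genes the m arrays lie outside the range of the other 4, which their choice by this difference nearly assures.

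Wnt ligands were another group with members higher in m. Wnt proteins are secreted signals that act through Frizzled receptors, and they promote growth of the midbrain. Of 43 listed pathway genes 33 were tested, with a median difference of 0.67. Among them 6 were higher in m, 1 was lower and 26 were not called (21.2% called, beside 4.25% of all genes). WNT4 was at 719 and 726 in m, 4.47 and 5.54 in r4, and 25.2 and 19.5 in r5, which put it 7.18 and 5.03 above the 2 rhombomeres (± 0.27, adjusted p = 7.6e-06). WNT2B read 105 and 106 in m and was near the floor of 0.96 in r4 and r5, where its highest value was 1.66. Both ligands were at intermediate levels in r1, WNT4 at 270 and 267 and WNT2B at 24.1 and 19.4. The other ligands called, WNT5B, WNT11 and WNT3A, differed less, and the call of WNT3A was lost when either m array or either r5 array was left out. The ligands WNT5A, WNT6, WNT7A and WNT7B were tested and not called. WNT5B was at 75.4 and 71.3 in m and 18.2 to 23.5 in r4 and r5, and WNT11 at 53.6 and 55.2 in m and 6.99 to 19.2 in r4 and r5. RSPO2, a secreted R-spondin that heightens Wnt signalling, read 67.6 and 81.0 in m, 12.5 and 27.5 in r4, and 24.1 and 19.7 in r5. Unlike WNT11, which was at 65.8 and 70.4 in r1, RSPO2 was at 16.2 and 15.1 there, inside the range of r4 and r5.

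DKK3, a secreted member of the Dickkopf family, was the pathway gene that was lower in m, at 347 and 347 against 778 to 878 in r4 and r5 (−1.29 and −1.17, ± 0.14, adjusted p = 0.00152). APCDD1, a membrane glycoprotein that inhibits Wnt signalling in vertebrates and was not on the list, was among the 12 genes highest in m. It was at 644 and 671 in m, 17.1 and 28.2 in r4, and 5.16 and 7.45 in r5 (4.90 and 6.73, ± 0.32, adjusted p = 1.94e-05), and a second probe set was called as well. The calls of WNT4, WNT2B and APCDD1 stood whichever of the 6 arrays was left out, but that of WNT2B was lost with the 3′ to 5′ ratio as a covariate (adjusted p = 0.122). WNT5B, WNT11, RSPO2 and DKK3 missed the threshold without m set 1 (limma adjusted p 0.204, 0.300, 0.262 and 0.0556) and without m set 2 (0.185, 0.340, 0.386 and 0.0548). WNT5B did so also without r5 set 2 (0.0604), WNT11 without r5 set 1 (0.111) or set 2 (0.131), and RSPO2 without r5 set 1 (0.154) or set 2 (0.191).

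FGF signalling was described further by its receptors and feedback genes, of which 13 were tested (median 0.47). Among them 2 were higher in m and 1 was lower (23.1% called, beside 4.25% of all genes). SPRY2, an inhibitor induced by FGF signalling, was at 111 and 114 in m and 27.9 to 54.9 in r4 and r5. IL17RD, a membrane inhibitor of FGF signalling also known as Sef, was at 108 and 114 in m and 18.9 to 35.9 in r4 and r5. Both were higher again in r1, SPRY2 at 264 and 269 and IL17RD at 154 and 162, as FGF8 was. The receptor FGFR3 ran the other way, from 149 and 156 in m to 579 and 603 in r4 and 415 and 433 in r5 (−1.95 and −1.47, ± 0.16, adjusted p = 0.000647). SPRY2 (1.19 and 1.74, ± 0.27, adjusted p = 0.0383) and IL17RD (1.64 and 2.36, ± 0.26, 0.0079) missed the threshold without either m array, with 0.362 and 0.171 without set 1 and 0.403 and 0.214 without set 2. SPRY2 also missed it without r4 set 1 (0.0968), r5 set 1 (0.0781) or r5 set 2 (0.0706).

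The remaining genes among the 12 highest in m encode an enzyme of sugar transfer, a sulfotransferase, a channel subunit and a lipid-binding family member. GALNT6, which starts the addition of O-linked sugars to proteins, was at 355 and 421 in m and 12.2 to 30.7 in r4 and r5. HS3ST6, which modifies heparan sulfate, was at 178 and 201 in m, 14.0 and 18.2 in r4, and 4.74 and 5.26 in r5. BPIFB3, of the BPI-fold family, read 173 and 161 in m and 4.45 to 8.72 in r4 and r5. In r1 GALNT6 (348 and 303) lay close to m, while HS3ST6 (78.3 and 68.8) and BPIFB3 (110.0 and 118) lay between. CNGA3, a subunit of the cyclic nucleotide-gated channel of cone photoreceptors, was low everywhere, at 19.1 and 16.5 in m and 0.42 to 1.47 in r4 and r5. Its call (adjusted p = 0.0265) was lost without m set 1 (0.359), m set 2 (0.333), r5 set 1 (0.0734) or r5 set 2 (0.0845), whereas those of GALNT6, HS3ST6 and BPIFB3 stood in every case, although that of HS3ST6 was lost with the 3′ to 5′ covariate (0.121).

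Hox genes had the lowest median difference of the lists, −5.84. Of 16 listed, 11 are named by the annotation, 4 were tested and all 4 were lower in m than in r4 and r5. Over all genes 4.25% were called. In m the 4 lay below the array median of 5.37, so that they passed the filter only through r4 or r5. The filter thus largely fixes their count and median, which are a description. With the floor raised to 20, none of the 4 was called. HOXA2, the most anterior Hox gene of the hindbrain, read 0.59 and 0.36 in m, 72.7 and 131 in r4, and 138 and 121 in r5. Both m values are under the floor, so that the differences of −6.67 and −7.08 (± 0.36, adjusted p = 7.6e-06) are lower bounds on the size. HOXB1, the Hox gene of r4, was at 1.23 and 0.38 in m, 205 and 334 in r4, and 52.4 and 92.2 in r5 (−7.91 and −6.00, ± 0.38, adjusted p = 1.91e-05). A second probe set named HOXB1, of a type that can also bind other sequences, was not called (−1.32 and 0.20).

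HOXA3 and HOXB3, whose expression starts at r5, were high in r5 and low in r4. HOXA3 was at 3.94 and 4.81 in m, 20.1 and 51.1 in r4, and 466 and 458 in r5, and HOXB3 at 0.14 and 1.25 in m, 7.05 and 9.15 in r4, and 54.7 and 40.5 in r5. Except for HOXA3 in set 2, these r4 values are at or below the level taken as background, so that the calls against r4 (−2.88 ± 0.39 and −2.88 ± 0.50) rest on low signals, and the other HOXA3 probe set was not called (0.67 and −2.24). In r1 none of the 4 genes exceeded 3.43, and in r2 HOXA2 was at 22.4 and 39.0 while the others were at 3.58 or below. HOXA3 (adjusted p = 0.00296) missed the threshold without m set 1 (0.0649), and HOXB3 (0.0126) without m set 1 (0.107), m set 2 (0.0648), r5 set 1 (0.0691) or r5 set 2 (0.0532). None of the 6 tested genes that encode Hox cofactors of the MEIS, PBX and PKNOX families was called by limma, with a median difference of 0.34. At an unadjusted p under 0.05 there were 0 of them, beside 3420 of all 19740 probe sets. So short a list is not set apart by these counts. MEIS2, for example, was at 99.4 and 121 in m and 80.4 to 111 in r4 and r5 (limma adjusted p = 0.973).

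PAX6, a paired-box transcription factor of the hindbrain and forebrain whose expression is excluded from the midbrain, gave the lowest adjusted p of the named genes. Its signal was 5.47 and 6.35 in m, 406 and 444 in r4, and 495 and 453 in r5. The log2 differences were −6.17 and −6.33 (± 0.21, adjusted p = 3.63e-07), and the m values lie below the level of about 20 that was not set apart from background. PAX6 was at 15.6 and 16.0 in r1 and 132 and 135 in r2, between m and r4 in both.

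Of 11 tested genes that handle retinoic acid, 4 were lower in m and 1 was higher, with a median of −1.55. The share called was 45.5%, beside 4.25% of all genes. CYP26C1 and CYP26A1 encode enzymes that break down retinoic acid. CYP26C1 was at 49.7 and 36.9 in m, 641 and 710 in r4, and 1200.3 and 1076 in r5 (−3.98 and −4.73, ± 0.19, adjusted p = 4.4e-06), and a second of its probe sets was called. CYP26A1 was at 8.09 and 8.22 in m, 27.4 and 36.7 in r4, and 77.1 and 71.4 in r5. Both enzymes were near the m level in r1 and far above it in r2: CYP26C1 was at 45.0 and 51.8 in r1 and 614 and 666 in r2, and CYP26A1 at 11.1 and 8.79 in r1 and 83.2 and 111 in r2. DHRS3, which turns retinaldehyde back into retinol, was at 16.6 and 15.0 in m, 74.6 and 70.4 in r4, and 232 and 293 in r5. RARB, a retinoic acid receptor whose gene is itself induced by retinoic acid, was at 18.5 and 16.0 in m, 49.2 and 78.1 in r4, and 115 and 97.0 in r5.

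RBP5, a cellular retinol-binding protein, was the retinoid gene higher in m, at 405 and 420 against 90.0 to 185 in r4 and r5 (1.98 and 1.31, ± 0.21, adjusted p = 0.00818). CYP26B1, the third enzyme of the family, was at 4.35 and 0.31 in m and 9.25 to 58.8 in r4 and r5 and did not pass (adjusted p = 0.125). The calls of CYP26C1 and DHRS3 stood whichever array was left out, but that of DHRS3 was lost with the 3′ to 5′ covariate (0.127). CYP26A1 (adjusted p = 0.00652), RARB (0.00707) and RBP5 missed the threshold without m set 1 (0.108, 0.0981 and 0.172) or m set 2 (0.109, 0.158 and 0.207), and RBP5 also without r5 set 1 (0.111). The genes that make retinoic acid, ALDH1A1, ALDH1A2 and ALDH1A3, fell below the filter.

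**Figure D4:**
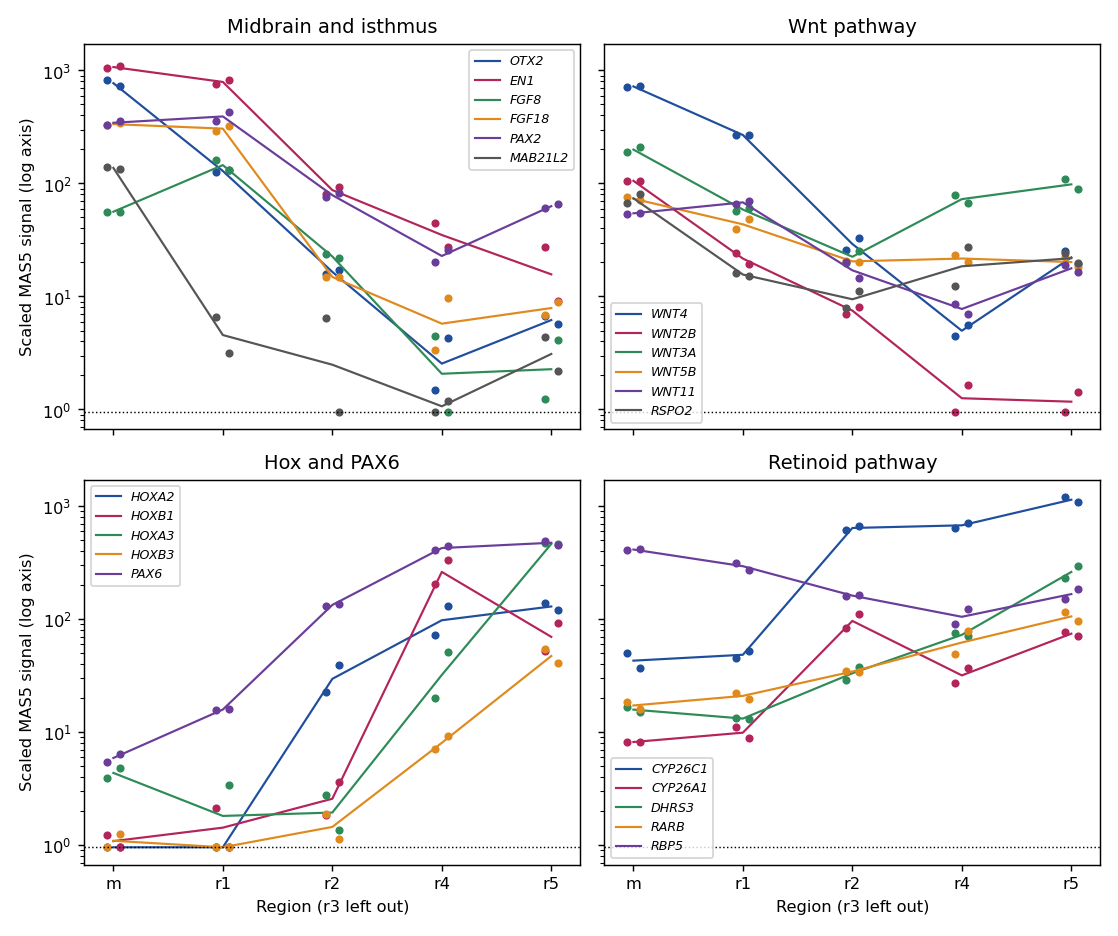
Scaled signal (log axis) of genes of 4 lists along the axis from m through r1, r2 and r4 to r5, with a point for each array and a line through the region means of log2 signal. EN1 and FGF18 are near their m level in r1 and far below it in r2, HOXA2 and CYP26C1 are near their m level in r1 and above it in r2, and HOXA3 and HOXB3 are highest in r5.

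Several secreted factors of the hindbrain segments were lower in m. Of 12 genes listed as signals or segment genes of r3 to r5, all were tested, 4 were lower in m and none was higher (median −1.98). The share called was 33.3%, beside 4.25% of all genes. Like the other lists, this one was chosen with earlier results of these data known, so that its count is a description. FGF19, an FGF ligand of the chick hindbrain, was at 10.8 and 14.9 in m, 110 and 133 in r4, and 93.7 and 90.8 in r5. FGF3, a ligand that takes part in induction of the inner ear, was at 28.6 and 30.3 in m, 102 and 116 in r4, and 222 and 157 in r5. In r1 and r2 both ligands were at 21.5 or below, so that r4 and r5 had the highest signal of the 5 regions. FST, which encodes the activin antagonist follistatin, read 17.0 and 18.5 in m, 92.5 and 183 in r4, and 189 and 168 in r5. ADCYAP1, the precursor of the neuropeptide PACAP, was at 3.85 and 5.72 in m, 165 and 149 in r4, and 22.5 and 33.2 in r5. FGF19 (adjusted p = 0.000222) and FST (0.000641) kept their calls whichever array was left out but not with the 3′ to 5′ covariate (FST 0.110), whereas FGF3 (0.00193) missed the threshold without m set 1 (0.0634) or m set 2 (0.0510) and ADCYAP1 (0.00243) without m set 1 (0.0566). SPP1, which encodes the matrix protein osteopontin, was high in r5 alone of the 3 regions, at 375 and 418, against 11.0 and 10.3 in m and no more than 22.3 in r4, and was not called.

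Of 47 listed genes of neuronal differentiation 24 were tested, with a median of −0.86. Among them 8 were lower in m and 1 was higher (37.5% called, beside 4.25% of all genes). Without the filter 2 were called lower and none higher. NEFM, a subunit of the filaments of neurons, had signals of 24.96 and 36.5 in m, 1085 and 1160 in r4, and 502 and 570 in r5. It was 5.22 ± 0.21 lower than in r4 and 4.15 ± 0.21 lower than in r5 on the log2 scale (adjusted p = 5.46e-06), and a second probe set was called. NEFM was at 144 and 151 in r1 and at 412 and 480 in r2, in both cases between m and r5. TAGLN3, a neuronal transgelin, was at 10.7 and 8.74 in m, 165 and 236 in r4, and 82.2 and 93.5 in r5. STMN2, a regulator of microtubules in growing axons, was at 5.24 and 6.21 in m, 77.5 and 120 in r4, and 41.4 and 43.5 in r5. CHGA, a granin of secretory granules, and MYT1, a zinc finger factor of early neurons, were close to the floor in m, with highest values of 1.60 and 0.67, and at 14.6 to 26.4 and 5.29 to 22.4 in r4 and r5. STMN2, CHGA and MYT1 passed the filter only through r4 or r5.

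NHLH1, a basic helix-loop-helix factor of new neurons, NEFL, another neurofilament, and LMO4, a LIM-only protein, were also lower in m. The calls of NHLH1, NEFL and LMO4 were lost when either m array or either r5 array was left out. In NEFM, TAGLN3, STMN2, CHGA and MYT1 both r4 arrays were above both r5 arrays, and of these 5 the difference between r4 and r5 passed the test for NEFM alone (−1.07 ± 0.21, limma adjusted p = 0.0413). TUBB3, a neuronal tubulin, was the member called higher, at 196 and 177 in m against 48.3 to 81.7 in r4 and r5 (adjusted p = 0.0324), from a probe set of a type that can bind other sequences. MYT1 (adjusted p = 0.0292) and TUBB3 missed the threshold without m set 1 (0.179 and 0.369), m set 2 (0.191 and 0.311), r5 set 1 (0.183 in both) or r5 set 2 (0.0713 and 0.177), and MYT1 also without r4 set 1 (0.0554). In whole segments, fewer neurons and less RNA per neuron cannot be told apart. None of 19 tested genes of neural progenitors and Notch signalling was called (median 0.36), beside 4.25% of all genes. In limma 5 of the 19 had an unadjusted p under 0.05, beside 3420 of all 19740 probe sets.

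Neural crest cells are the migratory cells that leave the dorsal neural tube. Of 12 tested markers of neural crest, 3 were lower in m and none was higher (median −1.33), beside 4.25% called over all genes. The summed signal of the list was 1056 and 1119 in m and 1700 to 3347 in r4 and r5. SNAI2, a zinc finger factor of emigrating crest, was at 26.8 and 29.1 in m, 357 and 405 in r4, and 229 and 205 in r5 (−3.77 and −2.95, ± 0.20, adjusted p = 2.49e-05). SOX10, an HMG-box factor of crest cells, was at 59.8 and 72.5 in m, 605 and 780 in r4, and 236 and 180 in r5 (−3.38 and −1.65, ± 0.22, adjusted p = 0.00227). SOX8, a relative of SOX10, was at 12.7 and 9.23 in m, 26.8 and 28.3 in r4, and 49.2 and 62.1 in r5. Both r4 arrays were thus above both r5 arrays for SNAI2 and SOX10, and below them for SOX8. Of these genes only SOX10 passed the test between r4 and r5 (−1.74 ± 0.22, limma adjusted p = 0.00397). SOX10 missed the threshold without m set 1 (0.0783) or r5 set 1 (0.0578), and SOX8 (adjusted p = 0.0466) whichever of the 6 arrays was left out (0.0768 to 0.458).

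The dorsal neural tube list, of 17 genes tested, had 2 that were higher and 3 that were lower in m (median −0.41). In all 29.4% of them were called, beside 4.25% of all genes. BMP7, a ligand of the BMP family, was at 67.1 and 80.7 in m, 9.77 and 6.23 in r4, and 4.03 and 16.8 in r5 (3.24 and 3.16, ± 0.58, adjusted p = 0.016). The BMP antagonist CHRD, chordin, was also higher, at 56.6 and 66.0 against 13.1 to 17.2. Both were at a like level in r1, BMP7 at 63.1 and 56.1 and CHRD at 78.6 and 67.7. MSX2, a homeobox target of BMP signalling, was lower in m, at 6.94 and 7.77 against 19.8 to 34.8. The zinc finger genes ZIC1 (183 and 216 in m, 401 to 656 in r4 and r5) and ZIC2 (402 and 401 in m, 614 to 749 in r4 and r5) were lower by smaller amounts, and the other ZIC2 probe set was not called. All 5 calls were lost without m set 1 (limma adjusted p 0.134 to 0.309) and without m set 2 (0.0769 to 0.332). BMP7 also missed the threshold without r4 set 1 (0.0544), r4 set 2 (0.0681) or r5 set 1 (0.0767), CHRD without r5 set 1 (0.0743) and ZIC1 without r5 set 2 (0.0845). MSX2 missed it without r4 set 1 (0.0631), r5 set 1 (0.206) or r5 set 2 (0.0587), and ZIC2 without r5 set 1 (0.158) or r5 set 2 (0.166).

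Of 14 ventral and intermediate genes tested, 2 were higher in m and 1, PAX6, was lower (median −0.01). The share called was 21.4%, beside 4.25% of all genes. NKX6-2, a homeobox gene of ventral progenitors, was at 245 and 267 in m and 82.1 to 135 in r4 and r5, and FOXA2, the forkhead gene of the floor plate, at 107 and 125 in m and 43.5 to 66.4 in r4 and r5. These differences of 1.11 to 1.34 were small beside that of PAX6, with adjusted p-values of 0.0246 and 0.0486, and both calls were lost without m set 1 (0.261 and 0.334), m set 2 (0.345 and 0.493), r5 set 1 (0.150 and 0.0802) or r5 set 2 (0.165 and 0.256), with FOXA2 lost also without r4 set 1 (0.0586). IRX1, an Iroquois homeobox gene and 1 of 9 probe sets that passed against r4 and r5 in opposite directions, was at 479 and 483 in m, 79.7 and 106 in r4, and 1039 and 789 in r5. It was singled out after its values were seen.

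Eph receptors keep cells of neighbouring segments apart. They included 3 of 13 tested Eph and ephrin genes that were lower in m and none that was higher (median −0.17). These 3 are 23.1% of those tested, beside 4.25% called over all genes. EPHA7 was at 16.5 and 12.9 in m, 215 and 236 in r4, and 183 and 164 in r5 (−3.95 and −3.57, ± 0.23, adjusted p = 1.94e-05). EPHA1 was at 7.21 and 6.57 in m, 46.0 and 37.0 in r4, and 122 and 94.7 in r5, and EPHA3 at 5.63 and 4.69 in m and 25.9 to 33.4 in r4 and r5. EPHA7 (202 and 191) and EPHA3 (25.6 and 23.4) were near their r4 and r5 level in r2, while EPHA1 (5.44 and 7.08) was near its m level there. EPHA3 (adjusted p = 0.00363) missed the threshold without m set 2 (0.0702) or r5 set 1 (0.0592).

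Axon guidance genes and cadherins included 4 of 26 and 1 of 16 tested genes that were lower in m, with none higher and medians of −0.59 and −0.21. The cadherin share, 6.25%, was near the 4.25% called over all genes, and that of axon guidance was 15.4%. DRAXIN, a secreted repellent of axons first described in chick, was at 51.9 and 50.4 in m, 659 and 703 in r4, and 392 and 344 in r5 (−3.73 and −2.84, ± 0.17, adjusted p = 1.7e-05). The semaphorin receptor PLXNA2 was at 55.0 and 66.6 in m and 321 to 471 in r4 and r5, and 1 of its 3 other probe sets missed the threshold. SEMA6D, a transmembrane semaphorin, was at 42.5 and 43.3 in m and 115 to 222 in r4 and r5, and ROBO2, a Slit receptor, at 18.1 and 22.3 in m and 41.7 to 66.5 in r4 and r5. CDH11, a cadherin of mesenchymal cells and crest, was at 4.71 and 5.82 in m and 20.1 to 54.0 in r4 and r5. DRAXIN and PLXNA2 kept their calls whichever array was left out, and with the 3′ to 5′ covariate DRAXIN did and PLXNA2 did not (0.0527). SEMA6D, ROBO2 and CDH11 (adjusted p = 0.00597, 0.0331 and 0.0107) missed the threshold without m set 1 (0.120, 0.364 and 0.168), m set 2 (0.114, 0.248 and 0.0964) or r5 set 1 (0.0516, 0.135 and 0.0954). ROBO2 and CDH11 did so without r5 set 2 too (0.101 and 0.0610), and ROBO2 without r4 set 2 (0.0690).

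Other genes among the 12 lowest in m were AGT, TSHZ3, NDP, RAMP3, PENK, HAPLN1 and RASD2. AGT, the precursor of angiotensin, was under the floor on both m arrays and at 74.6 and 70.0 in r4 and 37.9 and 28.1 in r5. The differences of −6.24 and −5.09 (± 0.39, limma adjusted p = 5.9e-05) are thus lower bounds on the size for this probe set. Its call was lost with the 3′ to 5′ covariate and with the floor at 20. A second AGT probe set, given above, had smaller differences and was not called. TSHZ3, a zinc finger transcription factor of the teashirt family, was at 4.52 and 4.73 in m and 99.9 to 142 in r4 and r5. RASD2, a small GTPase of the Ras family, was at 7.46 and 11.0 in m, 122 and 153 in r4, and 432 and 437 in r5. TSHZ3 and RASD2 stayed at or below 17.0 in r1 and r2, so that their high signal too lay in r4 and r5 among these regions. HAPLN1, which links hyaluronan to proteoglycans of the matrix, was at 4.04 and 8.54 in m, 182 and 202 in r4, and 95.6 and 105 in r5. PENK, the precursor of the enkephalins, was at 9.88 and 4.51 in m and 116 to 135 in r4 and r5. RAMP3, a partner of G protein-coupled receptors, was at 0.82 and 1.05 in m and 15.1 to 26.3 in r4 and r5. NDP, which encodes norrin, a ligand of the receptor FZD4, differed between the m pools, at 0.58 and 8.64, but both were below the 48.8 to 89.4 of r4 and r5, and its adjusted p of 0.0165 rose to 0.0586 without r4 set 1, 0.0757 without r4 set 2, 0.159 without r5 set 1 and 0.129 without r5 set 2.

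Genes of tissue next to the neural tube were checked in the same arrays. For comparison, 4.25% of all genes were called, and 3420 of all 19740 probe sets had an unadjusted p under 0.05 in limma. Of 11 genes of mesoderm and notochord only the collagen COL1A1 was called, at 38.9 and 36.4 in m, 223 and 239 in r4, and 129 and 77.3 in r5 (−2.62 and −1.41, ± 0.26, adjusted p = 0.0165), and its call was lost without m set 1 (0.210), m set 2 (0.248) or r5 set 1 (0.151). The median difference of that list was −1.12, between those of the neuronal (−0.86) and neural crest (−1.33) lists, and its summed signal was 614 to 685 in m and 651 to 1103 in r4 and r5. Of 10 genes of surface ectoderm, placodes and endoderm, EPCAM, an epithelial adhesion protein, was higher in m (619 and 608 against 235 to 301), and DLX5, a homeobox gene of placodes and crest, was lower (116 and 85.7 in m, 606 and 491 in r4, 248 and 260 in r5), although its other probe set was not called (−0.11 and 0.19). EPCAM (adjusted p = 0.00733) missed the threshold without m set 1 (0.181), m set 2 (0.178) or r5 set 2 (0.0713), and DLX5 (0.00571) without m set 2 (0.168), r5 set 1 (0.0751) or r5 set 2 (0.0721). None of 11 genes of blood and endothelium was called (2 at an unadjusted p under 0.05 in limma), with summed signals of 68.0 to 73.3 in m and 88.9 to 167 in r4 and r5. The embryonic globin HBE was at 12.1 and 11.7 in m, 41.7 and 61.8 in r4, and 10.9 and 15.7 in r5. Of 4 forebrain genes that passed the filter none was called (1 at an unadjusted p under 0.05), and the summed signal was 54.4 to 72.5 in m and 37.8 to 46.7 in r4 and r5. The part of such cells in the differences above was not tested.

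In the lists of genes common to all cells the share called, 3.85% to 6.67%, was near the 4.25% of all genes. Of 26 genes of the cell cycle, CCND2, a D-type cyclin, was higher in m, at 719 and 692 against 285 to 445, and of 16 stress genes, HSPA2, a heat shock protein, at 354 and 379 against 182 to 229. Their median differences were 0.18 and −0.17. Of 15 housekeeping genes (median −0.28) the ribosomal protein RPS6 was called lower, at 2098 and 2287 against 3025 to 3613, but it was not called after quantile normalisation and its direction turned without scaling (0.02). All 3 calls were lost without m set 1 (limma adjusted p 0.336 to 0.394), m set 2 (0.258 to 0.442), r5 set 1 (0.115 to 0.288) or r5 set 2 (0.0789 to 0.230).

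**Figure D5:**
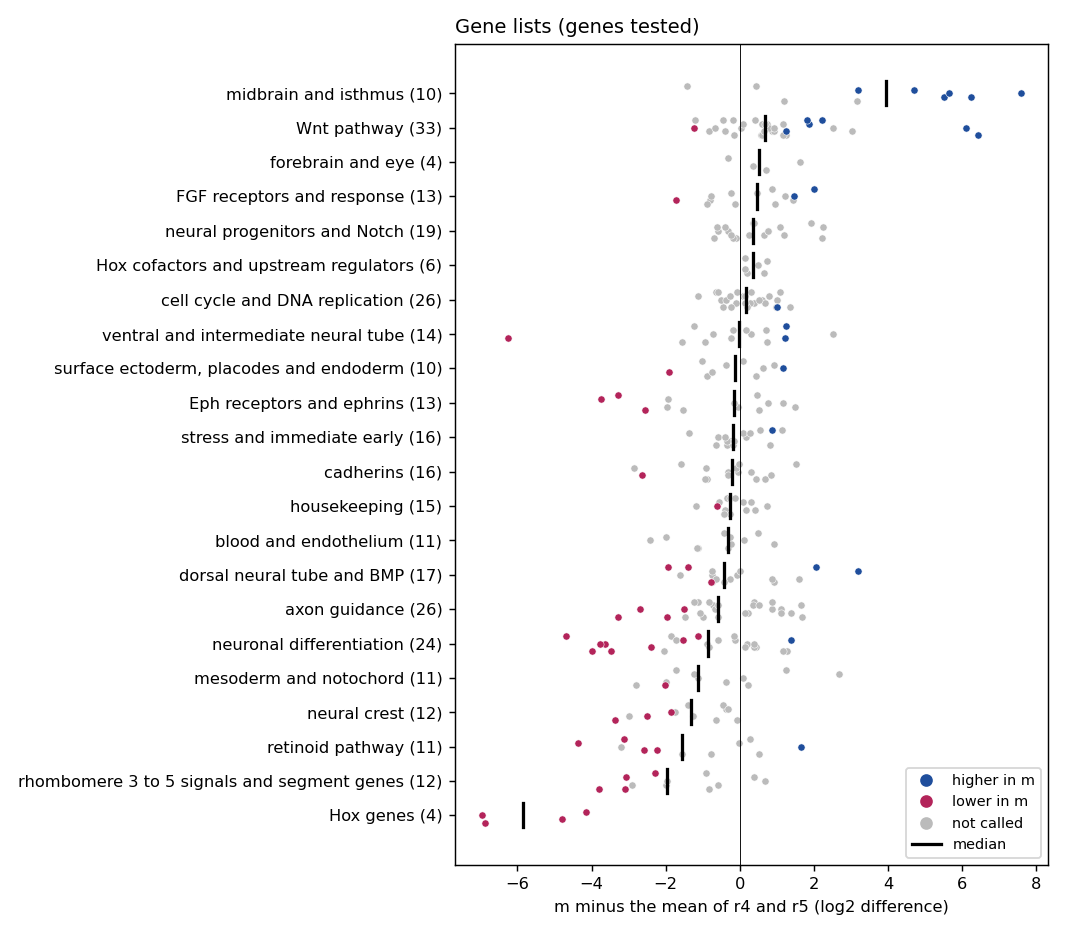
Log2 difference of m from the mean of r4 and r5 for the genes tested on each of 22 lists, with called genes in colour, the median as a bar and the number tested in brackets. Midbrain and isthmus genes have the highest median (3.94) and Hox genes the lowest (−5.84), while the lists of progenitor, cell cycle and housekeeping genes lie around 0. The Hox genes tested passed the filter only through r4 or r5.

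The genes that set m apart from r4 and r5 mostly took a level nearer to m in r1. On a scale where the mean of r4 and r5 is 0 and m is 1, the median position of the 215 higher genes was 0.78 in r1 and 0.43 in r2, and that of the 187 lower genes 0.79 and 0.54. In r1, 194 of the higher and 166 of the lower genes lay nearer to m. In r2, 90 of the higher and 96 of the lower genes did so. MAB21L2 and FGF8 bracket this range among the midbrain genes, the first near the r4 and r5 level in r1 and the second above m there. These positions are a description, since m, r4 and r5 were used to choose the genes. The control ratios of r1 and r2 also lay nearer to those of m than to those of most r4 and r5 arrays. The EF1a ratio of r1 set 2 (3.80), however, exceeded that of r5 set 2 (3.67).

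Some genes that differed from both rhombomeres also differed between them. Of 19740 probe sets 221 (1.12%) differed between r4 and r5 by limma, 0.679% higher in r5 and 0.441% lower. With 1 probe set per gene, 1.47% of all genes did so. Among the genes called against m these were 24 of the 187 lower and 6 of the 215 higher. Of the 24, 13 were higher in r5, among them HOXA3, HOXB3, DHRS3 and RASD2, and 11 were higher in r4, among them HOXB1, ADCYAP1, SOX10 and DRAXIN. Of the 70 genes of the naming rule that were called against m, HOXA3 had the largest difference in favour of r5 (3.85 ± 0.39, adjusted p = 0.00148) and ADCYAP1 that in favour of r4 (−2.52 ± 0.34, 0.00591). The count of 221 fell to 44 without r5 set 1, 11 without r5 set 2, 122 without r4 set 1, 73 without m set 1 and 76 without m set 2, and rose to 561 without r4 set 2.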

How the data were processed

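The authors amplified cDNA from total RNA of each pool with the NuGen Ovation V2 kit, hybridised it to Affymetrix Chicken GeneChips and deposited for each probe set 1 MAS5 signal, a linear intensity corrected by the mismatch probes. MAS5 is also named in the submitters' processing notes. The deposited intensities of 38535 probe sets were not on a common scale. Detection flags were not used here, and the number of arrays limits the precision.

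Leaving out the AFFX controls, 38439 probe sets remained, and their median was used to scale each of the 6 arrays to a median of 5.37, the average of the 6. A floor of 0.96, the 20th percentile of all 6 arrays together, was set before log2 was taken. Differences are on this floored scale, which understates those of low genes. Probe sets had to exceed the median of both arrays in 1 or more of the regions, and the 19740 that did were fitted to 3 region means in R 4.3.3 with limma 3.58.1 (lmFit, then eBayes with trend, with 3 residual and 7.51 prior degrees of freedom). A gene was called if the larger p of m against r4 and of m against r5, adjusted by Benjamini-Hochberg over all 19740, was under 0.05 and both differences had the same sign. Of the probe sets other than controls, 27168 carry 1 gene symbol from the platform annotation, 177 several and 11094 none. Of the 27168, 26853 were found in the RefSeq gene table, which changed 0 of them. No 2 arrays held identical values. The test was checked on simulated arrays with independent normal errors of the spread that limma estimated. They held no difference between arrays in scaling or in 3′ to 5′ signal, so that the check does not bear on these.

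Named are OTX2, PAX6 and NEFM, FGF8 and HOXB1, the 12 genes highest and the 12 lowest among those called, up to 5 members of each list called in each direction, and for lists of other cell types the members of highest signal, of which a part is given. PAX2, WNT3A, NHLH1, NEFL, LMO4 and genes named as not called were added after their values were seen. Members and lists were chosen with earlier results of these data known. Alternatives covered scaling, floor, filter, the arrays in the fit, the set number as a block, moderation, the call rule, the 3′ to 5′ ratio as a covariate, other probe sets and each array left out. The 2 alternatives that centre the arrays on other genes were added after seeing the data.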

Additional observations from a re-analysis of the deposited data

Results flagged for a closer look

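Of the 80 genes of the naming rule, 14 differed between r4 and r5 by limma, beside 1.47% of all genes. Differences are log2 r5 minus r4, with p adjusted over all probe sets. For these 14 the difference from m was unequal in the 2 rhombomeres. Most of the 80 were named by values of these same arrays, so that the count is a description. Higher in r5 were HOXA3 (3.85), HOXB3 (2.55), DHRS3 (1.85) and RASD2 (1.67), all lower in m than in either, and WNT4 (2.15), which was higher in m than in either. Higher in r4 were ADCYAP1 (−2.52), HOXB1 (−1.91), SOX10 (−1.74), DLX5 (−1.1), NEFM (−1.07) and DRAXIN (−0.89), all lower in m, and APCDD1 (−1.83) and HS3ST6 (−1.68), higher in m. HBE, an embryonic globin that was not called against m, was also higher in r4 (−1.96). SPP1 (4.63) and IRX1 (3.30), which are outside that rule and were not called against m, were higher in r5. The signals of WNT4 and HOXB3 in r4 and of APCDD1 and HBE in r5 lie below the level taken as background. Those of HS3ST6 do so in both rhombomeres, so that its whole difference between r4 and r5 lies below that level. The sizes of these differences are therefore uncertain.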

How the results depend on the processing

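The number of calls moved with most settings. Counts are given as higher, lower and, where it changed by more than 1.5 times, unequal between r4 and r5, against 409, 287 and 221. With 10 arrays sharing the spread they were 1038, 483 and 571, with 12 arrays 149, 163 and 115, and with the 3′ to 5′ ratio as a covariate over 10 arrays 27, 36 and 146. Centring on housekeeping genes gave 1826, 334 and 439, centring on the probe sets tested 466, 1808 and 407, quantile normalisation 630, 688 and 337, and no scaling 3714, 142 and 367. A floor at 20 gave 323, 93 and 33, no filter 16, 33 and 0 (in limma, 3844 at an unadjusted p under 0.05), no intensity trend 73, 93 and 121, and an ordinary linear model 1, 1 and 3. Each contrast adjusted by itself gave 680 and 443, and m against the mean of r4 and r5 gave 2162 and 1232. With an array left out the counts ran from 26 to 994 higher, 81 to 378 lower and 11 to 561 unequal. The cause of these shifts was not tested.

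Same-numbered arrays did not deviate together (correlations of −0.01 to 0.02), so the set number was not taken to pair the samples. With it as a replicate block the counts were 499 and 327, and of 70 named genes called FOXA2 and SOX8 lost their call. Of the 70, 33 kept their call whichever array was left out, 59 under all scalings and 22 with the covariate, of which APCDD1, BPIFB3, GALNT6, WNT4, CYP26C1, DRAXIN, EPHA7, NEFM, PAX6, RASD2, SNAI2, TAGLN3 and TSHZ3 also kept it in all the others but the ordinary linear model, which called none of the 70 (69 at an unadjusted p under 0.05). With a floor at 20, 31 of the 70 kept their call, and without the filter 21 did. OTX2, EN1 and FGF18 were among those that lost it without the filter. Reversed in sign were RPS6 without scaling (0.017) and the other probe sets of ZIC2 (0.20) and DLX5 (0.042). Without scaling ZIC1, ZIC2, DKK3, SOX8, DLX5, ROBO2, COL1A1, FGFR3 and MSX2 were not called.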
